A study of Mus musculus with 12 samples.

Results

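Serotonin receptor genes were examined in poly(A) RNA-seq counts of mouse hippocampus. The 10 genes were taken by symbol, matched through Ensembl gene IDs, from the 37991 genes counted in every library: *Htr1a*, *Htr1b*, *Htr1f*, *Htr2a*, *Htr2c*, *Htr3a*, *Htr4*, *Htr5a*, *Htr5b* and *Htr7*. The remaining receptor genes of the family, *Htr1d*, *Htr2b*, *Htr3b* and *Htr6*, were used for comparison. The 12 libraries came from 12 mice of the C57BL/6N strain aged 6 to 7 months, with 6 labelled wild type and 6 labelled *Gadd45a*-/-, bred from heterozygous parents. All animals were trained in the passive avoidance (PA) task, in which a mouse receives a foot shock on entering a dark compartment, and the hippocampi were collected 1 h later, so that no untrained animal is part of the comparison. In the mutant line the first exons of *Gadd45a* are replaced by a neomycin cassette in every cell of the animal. The libraries are called WT-labelled and KO-labelled below, and the question was whether the receptor genes differed between these labels.

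The labels were checked on the targeted gene. Levels are given as CPM, the reads of a gene scaled to the library's total of reads on genes. *Gadd45a* had 2.58 ± 0.481 CPM (SD, n = 6) in the WT-labelled and 21.4 ± 1.07 CPM (SD, n = 6) in the KO-labelled libraries. Reads counted over the whole gene therefore went against the label, and every direction given for a receptor rests on labels for which this holds. Between 44594261 and 55540601 reads per library were counted on genes. The share of reads on no annotated exon of the matching strand ran from 14.4% to 15.8% in the WT-labelled libraries. In the KO-labelled libraries it ran from 13.0% to 14.3%, without overlap. Reads aligned to several places are left out of this share, and reads in introns can be part of it. Hippocampal markers were present throughout, with 2011 to 2599 summed CPM for 10 pyramidal neuron markers and 499 to 980 for 8 dentate granule cell markers. KO-labelled replicates 2 and 3 stood apart, since 10 thalamus markers summed to 358 and 550 CPM there and to 118 to 169 CPM in all other libraries, while *Shox2* of that list had no reads. Results that rest on these libraries are given with and without them.

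Serotonin reaches the hippocampus through axons of raphe neurons, and its receptors lie on pyramidal cells, granule cells, interneurons and incoming fibres. All but one of the receptor families are G protein-coupled: 5-HT1 and 5-HT5 receptors act through Gi/o and restrain cyclic AMP, 5-HT2 receptors act through Gq and phospholipase C, and 5-HT4, 5-HT6 and 5-HT7 receptors act through Gs and raise cyclic AMP. The 5-HT3 receptor is a ligand-gated cation channel of the Cys-loop family. In hippocampus, 5-HT1A is known as an inhibitory receptor of pyramidal and granule cells, 5-HT3 as a receptor of interneurons, and 5-HT4 as an excitatory receptor of principal cells.

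This division is visible in the coding sequences. An in-frame triplet of codons for aspartate, arginine and tyrosine (GAC or GAT, then CGN, AGA or AGG, then TAC or TAT, read on the coding strand only) was found once in 9 of the 10 genes and not in *Htr3a*, the channel subunit. Of 22754 mouse genes with a coding sequence in the same annotation, 7.66% hold such a triplet anywhere in frame. In G protein-coupled receptors of the rhodopsin class, the triplet lies at the inner end of the third membrane helix and takes part in coupling to the G protein. The stretches, read from GENCODE M1 transcripts, are shown because they set the G protein-coupled members side by side at a position they share, with the triplet in capitals and the 9 bases on each side in lower case.
Htr1a: atcgcgctaGACAGGTACtgggcaatc
Htr1b: atcgccctgGACCGCTACtgggccatc
Htr1f: atagccttgGATAGGTACcgcgccatc
Htr2a: atctccctgGACCGCTACgtggctatc
Htr2c: atatcgctgGACCGGTATgtagcaata
Htr5a: atagctctgGACCGCTACtggtcaatc
Htr5b: atcgccctgGATCGCTACtggactatc
Htr7: atcagcatcGACAGGTACcttgggatc

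On NCBIM37 these stretches lie at chr13:106234721-106234747 on the plus strand for *Htr1a*, chr9:81525719-81525745 on the minus strand for *Htr1b* and chr16:64926379-64926405 on the minus strand for *Htr1f*. They lie at chr14:75044887-75044913 for *Htr2a* and chrX:143604205-143604231 for *Htr2c*, both on the plus strand. The stretch lies at chr5:28169391-28169417 on the plus strand for *Htr5a* and at chr1:123424299-123424325 on the minus strand for *Htr5b*. In *Htr7*, on the minus strand of chromosome 19, an intron divides it, so that its bases fall between 36044542 and 36131209. *Htr4* holds the triplet as well. The counts do not resolve coding positions, and these letters bear on no difference between the labels.

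Levels of different genes were compared per length of annotated exon, as RPKM (CPM divided by kilobases of exon), in the WT-labelled libraries. *Htr1a* led with 10.1 ± 0.734 RPKM (SD, n = 6). Its mean over all 12 libraries of both labels lay above that of 66.2% of the tested genes. The lowest WT-labelled value of *Htr1a*, 9.44 RPKM, exceeded the highest value of *Htr3a*, 5.85 RPKM. *Htr3a* followed with 5.00 ± 0.575 RPKM and *Htr4* with 3.47 ± 0.226 RPKM, and the range of *Htr3a*, from 4.17 RPKM upward, lay above that of *Htr4*, which reached 3.87 RPKM.

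Between these genes and the lowest, the ranges of neighbours in the order overlapped. *Htr1b*, *Htr5b*, *Htr2a*, *Htr5a* and *Htr7* had means from 2.19 to 2.90 RPKM, and the range of each overlapped that of its neighbour. *Htr2c* had 1.78 ± 0.705 RPKM, but its 9328 bases are the merged exons of 8 annotated transcripts. This can lower the value against genes with 1 transcript. The same holds for *Htr7*, with 3399 bases merged over 6 transcripts. *Htr1f* was the lowest member at 0.686 ± 0.0870 RPKM, below all WT-labelled values of the other members. Of the receptors outside the 10, *Htr6* had 1.41 ± 0.315 RPKM and *Htr1d*, with 3 to 14 reads per library and not tested, 0.0372 ± 0.0135 RPKM. *Htr2b* and *Htr3b*, the latter coding for the partner subunit of *Htr3a*, had 0 to 3 reads per library. This is not above the floor of 3 counts set here. Both were too low to be tested, and no difference is given for them.

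**Figure D1:**
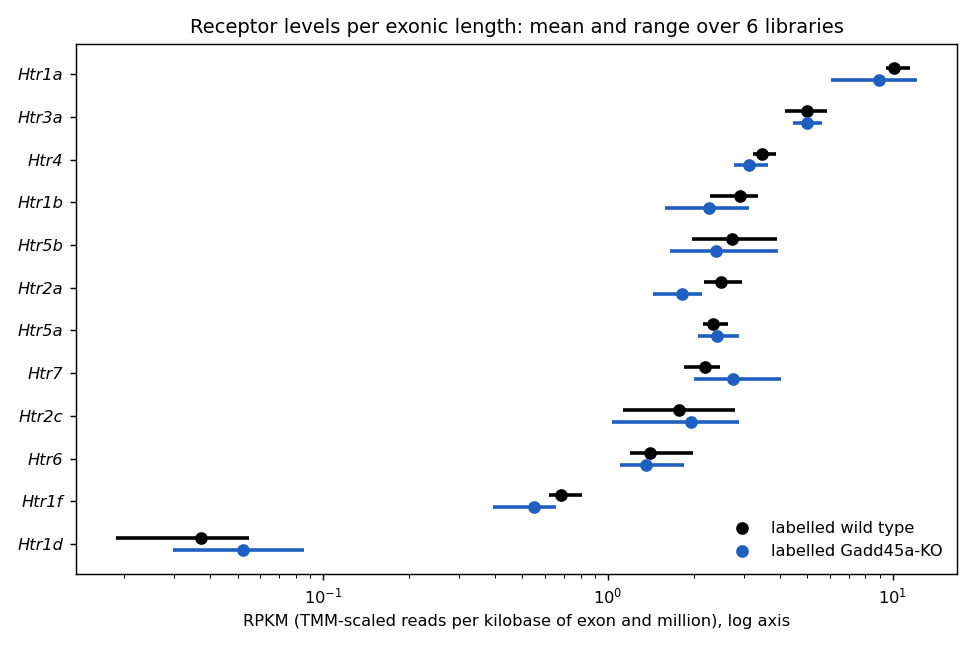
Levels of 12 serotonin receptor genes per exonic length in the WT-labelled (black) and KO-labelled (blue) libraries. Points are means and lines the range over 6 libraries, on a log axis of RPKM. *Htr1a* stands above all others in the WT-labelled libraries, and *Htr1d* lies far below the rest.

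All 10 genes passed edgeR's expression filter and were tested together with all other genes in 1 fit of edgeR's quasi-likelihood model, with p-values adjusted by Benjamini-Hochberg over all 16399 genes. None passed 1% FDR, at which 2.62% of all genes were lower and 0.0244% higher in the KO-labelled libraries. None passed it either with an offset for exonic length, which called 1.67% of all genes lower and 0.055% higher, or with the replicate number as a block, which called 3.1% lower and 0.0305% higher. At 5% FDR, 1 of the 10, *Htr2a*, was lower, against 4.43% of all genes, and none was higher, against 0.122%. With DESeq2 at 1% FDR the same gene was lower, against 3.7% of all genes, and none was higher, against 0.101%. At an unadjusted p under 0.05 in edgeR, 3 of the 10 were lower, against 9.35% of all genes, and 1 was higher, against 4.34%. Log2 fold changes were negative for 6 genes and positive for 4, with a median of -0.16, beside 48.2% negative and a median of 0.00 over all genes tested. Without KO-labelled replicates 2 and 3, the median of the 10 was -0.02, with 6 negative and 4 positive.

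**Figure D2:**
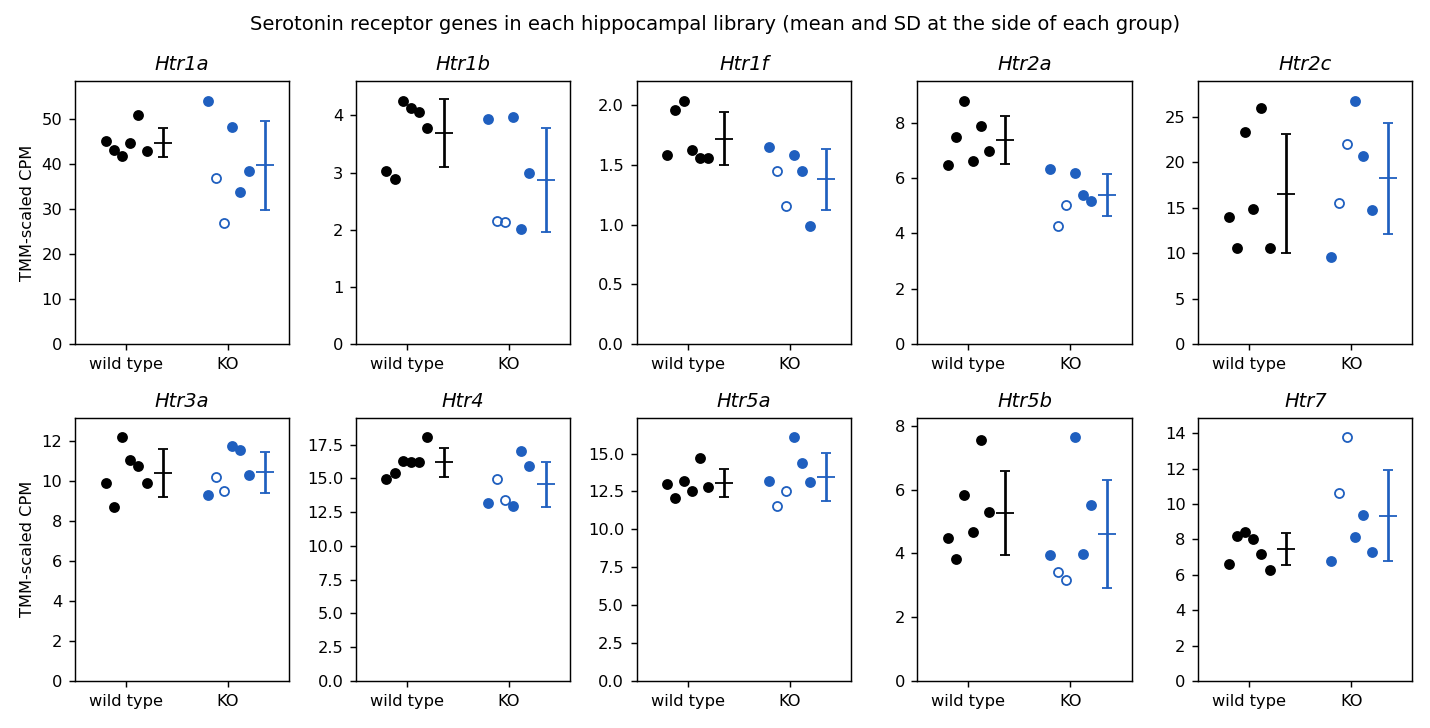
TMM-scaled CPM of the 10 receptor genes in each library, with the mean and SD at the side of each group (n = 6). Open circles mark KO-labelled replicates 2 and 3, the libraries rich in thalamus markers. Only for *Htr2a* do all KO-labelled values lie below all WT-labelled values.

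The 5-HT2 receptor genes held the clearest difference. *Htr2a* (ENSMUSG00000034997), on the plus strand of chromosome 14 from 75040647 to 75106666 of NCBIM37, codes for 5-HT2A, the Gq-coupled receptor through which hallucinogenic drugs act. It had 6.47, 7.24 and 8.80 CPM as lowest, median and highest value in the WT-labelled libraries, and 4.28, 5.27 and 6.33 CPM in the KO-labelled libraries. All 6 KO-labelled libraries lay below all 6 WT-labelled libraries, a separation found in this direction for 3.12% of the genes tested. The read counts behind these values were 294 to 479 in the WT-labelled and 195 to 323 in the KO-labelled libraries. The log2 fold change was -0.45 ± 0.10 (SE; edgeR adjusted p = 0.0150), so that the gene passed 5% FDR and missed 1%. Permuting the labels exactly (two-sided, on mean log2 CPM) gave p = 0.00216, which is the smallest p that 6 libraries against 6 allow and is not adjusted for the number of genes.

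How the *Htr2a* difference is called depends on the test. DESeq2 gave a log2 fold change of -0.45 with an adjusted p of 0.000784, whereas edgeR's adjusted p ran from 0.0141 to 0.0513 when each library was left out in turn. Without KO-labelled replicates 2 and 3, chosen after seeing the data, the log2 fold change was -0.36 ± 0.10 (SE; edgeR adjusted p = 0.0797). These 2 libraries held the lowest *Htr2a* values, 4.28 and 5.01 CPM, and the other 4 KO-labelled libraries, with 5.17 to 6.33 CPM, also lay below every WT-labelled library.

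*Htr2c* (ENSMUSG00000041380), on the X chromosome from 143397056 to 143631820, codes for the second Gq-coupled receptor, which is also abundant in choroid plexus and whose mRNA is edited. It had 10.6, 14.5 and 26.0 CPM as lowest, median and highest value in the WT-labelled libraries, and 9.59, 18.1 and 26.8 CPM in the KO-labelled libraries. The labels overlapped almost over the whole range. The log2 fold change was 0.13 ± 0.26 (SE; edgeR adjusted p = 0.901), and the standard error was the largest of the 10 genes. Leaving out KO-labelled replicate 4, the highest of all, brought the log2 fold change to -0.0010. Editing and transcript forms cannot be read from counts per gene.

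The ratio of *Htr2a* to *Htr2c* was also compared, since it does not depend on how libraries are scaled. The mean log2 ratio was -1.08 ± 0.468 (SD, n = 6) in the WT-labelled and -1.69 ± 0.581 (SD, n = 6) in the KO-labelled libraries. The difference of -0.61 did not pass a two-sided exact permutation test (p = 0.0823, and 0.288 after Benjamini-Hochberg adjustment over the 5 ratios examined). Leaving out 1 library moved this p below 0.05 in 2 of 12 cases, with -0.83 (p = 0.00866, exact) without KO-labelled replicate 1 and -0.73 (p = 0.0433, exact) without WT-labelled replicate 5.

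Among the 5-HT1 receptor genes, all coupled to Gi/o, *Htr1a* (ENSMUSG00000021721), on the plus strand of chromosome 13 from 106233773 to 106238213, is a single-exon gene. It had 41.91, 43.99 and 50.99 CPM as lowest, median and highest value in the WT-labelled libraries, and 26.9, 37.7 and 54.1 CPM in the KO-labelled libraries. The KO-labelled libraries spread on both sides of the WT-labelled ones, with 4 below all of them and 1 above, and their coefficient of variation was 24.8% against 7.28%. The log2 fold change was -0.17 ± 0.13 (SE; edgeR adjusted p = 0.649). Without KO-labelled replicates 2 and 3 it was -0.04 ± 0.11 (SE; edgeR adjusted p = 1.00).

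*Htr1b* (ENSMUSG00000049511), on the minus strand of chromosome 9 from 81524950 to 81526222, codes for a receptor best known on axon terminals. It had 2.89, 3.92 and 4.26 CPM in the WT-labelled libraries and 2.01, 2.58 and 3.97 CPM in the KO-labelled libraries, in the same order of lowest, median and highest value. The groups overlapped, with 3 KO-labelled libraries below all WT-labelled ones. The log2 fold change was -0.37 ± 0.18 (SE; edgeR adjusted p = 0.409), and -0.19 without KO-labelled replicates 2 and 3. The long non-coding RNA gene *D430036J16Rik* overlaps its exon on the opposite strand, and strand-specific counting separates the reads of both.

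*Htr1f* (ENSMUSG00000050783), on the minus strand of chromosome 16 from 64924555 to 65105610, was the least abundant member, with 52 to 111 reads per library. Its lowest, median and highest values were 1.558, 1.603 and 2.038 CPM in the WT-labelled and 0.988, 1.45 and 1.65 CPM in the KO-labelled libraries. All 6 KO-labelled libraries lay below the WT-labelled mean and 4 below every WT-labelled library. The log2 fold change, -0.32 ± 0.13 (SE; edgeR adjusted p = 0.289), did not pass after adjustment, and it was -0.28 without KO-labelled replicates 2 and 3. None of the 3 ratios among *Htr1a*, *Htr1b* and *Htr1f* passed a two-sided exact permutation test, with p from 0.173 to 0.729.

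The 5-HT5 genes showed no difference that passed. *Htr5a* (ENSMUSG00000039106), on chromosome 5 from 28168487 to 28181626, had 12.04, 12.88 and 14.71 CPM as lowest, median and highest value in the WT-labelled and 11.5, 13.1 and 16.1 CPM in the KO-labelled libraries. Its log2 fold change was 0.05 ± 0.07 (SE; edgeR adjusted p = 0.873). *Htr5b* (ENSMUSG00000050534), on chromosome 1 from 123406419 to 123425042, had 3.83, 4.99 and 7.57 CPM in the WT-labelled and 3.18, 3.97 and 7.65 CPM in the KO-labelled libraries. In both labels a single library, WT-labelled replicate 5 and KO-labelled replicate 4, carried the highest *Htr5b* value. Its log2 fold change was -0.20 ± 0.21 (SE; edgeR adjusted p = 0.787), and -0.0044 without KO-labelled replicates 2 and 3. The log2 ratio of *Htr5a* to *Htr5b* differed by 0.27 between the labels (two-sided exact permutation test, p = 0.158, and 0.288 after Benjamini-Hochberg adjustment over the 5 ratios). Leaving out each library in turn gave p from 0.0433 to 0.294 in this test. Only without KO-labelled replicate 4, where the difference was 0.37, was it below 0.05.

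The Gs-coupled receptor genes had log2 fold changes of opposite sign, none of which passed. *Htr4* (ENSMUSG00000026322), on chromosome 18 from 62483858 to 62627456, had 14.98, 16.19 and 18.04 CPM as lowest, median and highest value in the WT-labelled and 12.9, 14.1 and 17.0 CPM in the KO-labelled libraries. The log2 fold change was -0.15 ± 0.07 (SE; edgeR adjusted p = 0.354), with 4 KO-labelled libraries below all WT-labelled ones. *Htr6*, which is not among the 10, had 3.29 ± 0.737 CPM and 3.19 ± 0.607 CPM (SD, n = 6 each) in the WT-labelled and KO-labelled libraries, with a log2 fold change of -0.04 (edgeR adjusted p = 0.946).

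*Htr7* (ENSMUSG00000024798), on the minus strand of chromosome 19 from 36033224 to 36131997, had the highest log2 fold change of the 10, 0.33 ± 0.15 (SE; edgeR adjusted p = 0.358). Its lowest, median and highest values were 6.27, 7.60 and 8.43 CPM in the WT-labelled and 6.81, 8.78 and 13.8 CPM in the KO-labelled libraries. The highest were KO-labelled replicates 2 and 3, with 10.6 and 13.8 CPM, against 6.81 to 9.40 CPM in the other 4. Without these libraries the log2 fold change was 0.09 ± 0.11 (SE; edgeR adjusted p = 1.00). 5-HT7 is known to be abundant in thalamus.

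*Htr3a* (ENSMUSG00000032269), on the minus strand of chromosome 9 from 48707319 to 48719204, codes for the channel subunit and marks a class of interneurons. It had 8.68, 10.3 and 12.2 CPM as lowest, median and highest value in the WT-labelled and 9.30, 10.3 and 11.8 CPM in the KO-labelled libraries. The groups coincided, with a log2 fold change of 0.00 ± 0.08 (SE; edgeR adjusted p = 0.996). Of 14 GABAergic interneuron markers, none passed 1% FDR, and their summed level was 1080 to 1176 CPM in the WT-labelled and 1019 to 1205 CPM in the KO-labelled libraries.

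**Figure D3:**
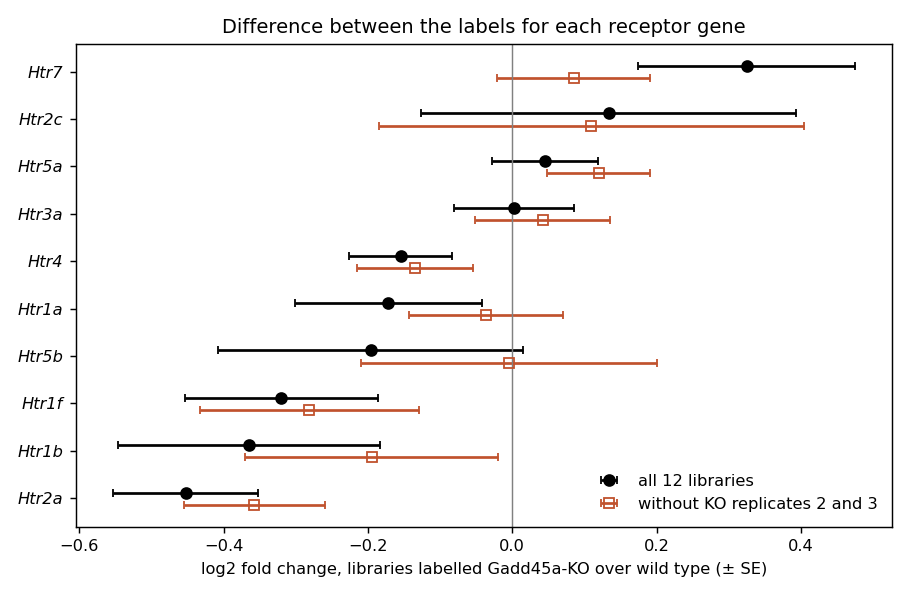
Log2 fold change of each receptor gene, KO-labelled over WT-labelled, with standard errors, in all 12 libraries (filled circles) and without KO-labelled replicates 2 and 3 (open squares). *Htr2a* stays lowest at -0.45 and -0.36, while *Htr7* moves from 0.33 to 0.09 and *Htr5b* from -0.20 to -0.0044.

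Markers of neighbouring regions varied among libraries together with several receptors. All 9 thalamus markers tested had positive log2 fold changes, none at 1% FDR, with a median of 0.91. Without KO-labelled replicates 2 and 3, 5 were positive and 4 negative, with a median of 0.011. Their summed level was 118 to 167 CPM in the WT-labelled and 128 to 550 CPM in the KO-labelled libraries. *Tcf7l2*, a defining transcription factor of thalamus, had 24.1 and 31.5 CPM in KO-labelled replicates 2 and 3, 3.67 to 4.07 CPM in the other 4 KO-labelled libraries and at most 5.30 CPM in the WT-labelled libraries. With the mean of each label removed, the mean log2 level of these markers had r = 0.759 (Spearman's rho 0.594) with *Htr7* and r = -0.681 (rho -0.469) with *Htr1a* over the 12 libraries. Within the KO-labelled libraries r was 0.902 for *Htr7* and -0.704 for *Htr1a*, whereas within the WT-labelled libraries it was -0.501 for *Htr7*, of opposite sign, and -0.308 for *Htr1a*. Without the 2 libraries farthest from the median of the markers, r was 0.363 and -0.405, so both relations rest largely on those libraries. *Htr2a* had r = -0.626 (rho -0.685) with the same markers, -0.787 within the WT-labelled and -0.693 within the KO-labelled libraries, and -0.555 without the farthest 2. It had r = -0.714 with 8 neocortex markers and 0.628 with the pyramidal neuron markers. Such values were not particular to *Htr2a*. With the thalamus markers r was -0.657 for *Htr5b*, -0.636 for *Htr5a* and -0.622 for *Htr1b*. With the neocortex markers it was -0.707 for *Htr5b* and -0.702 for *Htr1b*. Of the 10 receptors, only *Htr7* had a positive r with either list. With the pyramidal neuron markers *Htr1b* had r = 0.717, while *Htr4* and *Htr7* had negative values. *Htr7* and *Htr1a* also went with 6 oligodendrocyte markers, with r = 0.749 and -0.738, or 0.313 and -0.421 without the farthest 2 libraries. With this list *Htr5b* and *Htr5a* had r = -0.620 and -0.463, or -0.863 and -0.661 without those libraries. *Htr2c* had r = 0.034, or -0.684 without them. These are descriptions over libraries that share a dissection and a depth, and are taken from 120 relations between 10 receptors and 12 marker lists. In bulk tissue, fewer cells of a type and less RNA per cell cannot be told apart. The part of thalamic tissue in the values of *Htr7*, *Htr1a*, *Htr2a* and the other receptors was not tested.

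**Figure D4:**
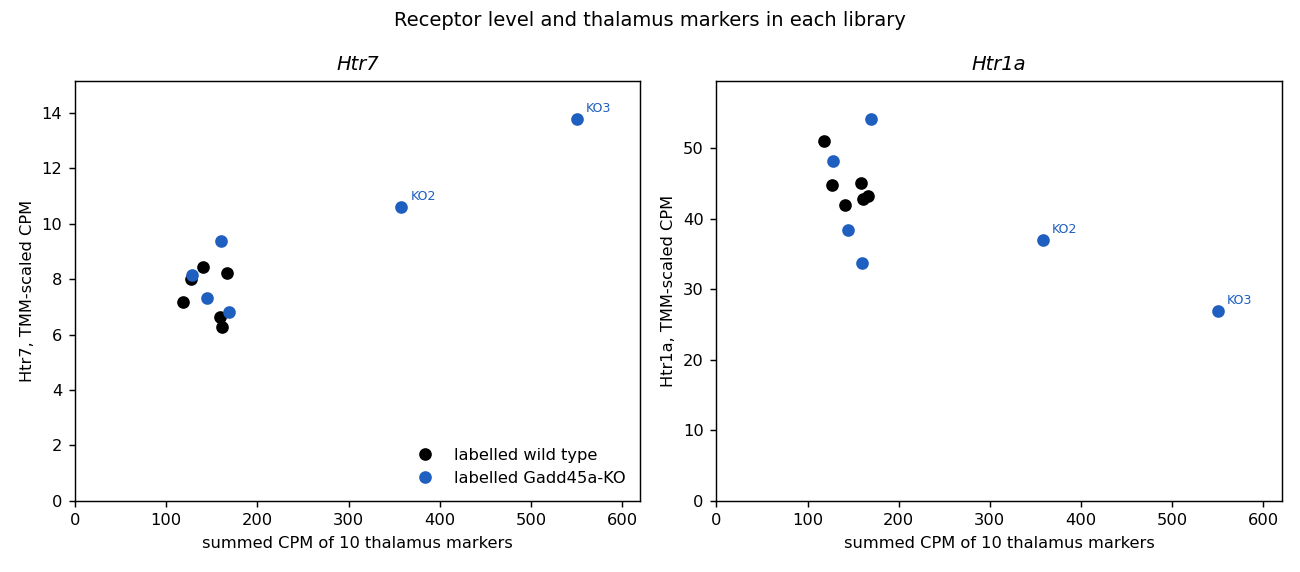
TMM-scaled CPM of *Htr7* (left) and *Htr1a* (right) against the summed CPM of 10 thalamus markers in each library. KO-labelled replicates 2 and 3, at 358 and 550 CPM of markers, hold the 2 highest *Htr7* values, and replicate 3 holds the lowest *Htr1a* value.

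The spread of *Htr2c* went with another axis. Over the 12 libraries, with label means removed, *Htr2c* had r = -0.822 (rho -0.797) with 8 dentate granule cell markers, the list to which its relation was strongest, and r = -0.813 without the 2 libraries farthest from the median. Within the 6 WT-labelled libraries r was -0.966 and within the 6 KO-labelled libraries -0.804. Other receptors also had negative values with this list, with r = -0.635 for *Htr5b*, -0.617 for *Htr5a* and -0.552 for *Htr3a*. Without the 2 farthest libraries these were -0.243, -0.259 and -0.216. Only *Htr4* had a positive r over the 12 libraries, 0.404. The 3 libraries with the most *Htr2c*, KO-labelled replicate 4 and WT-labelled replicates 5 and 3, had 26.8, 26.0 and 23.4 CPM and were among the 4 with the lowest marker sums, from 499 to 747 CPM. None of the 8 dentate markers passed 1% FDR, and 7 of them had negative log2 fold changes. Choroid plexus, the tissue richest in *Htr2c*, had r = 0.00 with it for 11 of 12 markers tested. Without the 2 libraries farthest from the median of these markers, r was -0.294. The sum over the list was 43.1 to 72.5 CPM in the WT-labelled and 36.4 to 90.5 CPM in the KO-labelled libraries. The part of choroid plexus in the values of *Htr2c* was not tested.

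**Figure D5:**
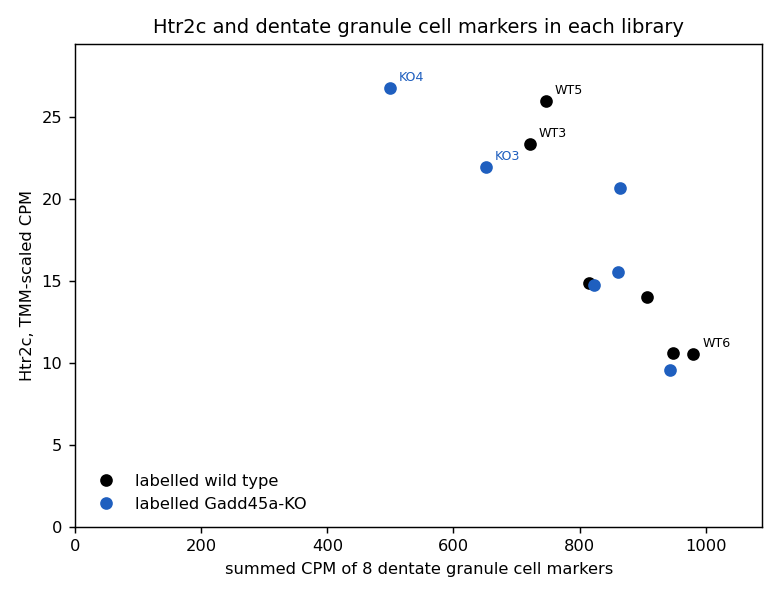
TMM-scaled CPM of *Htr2c* against the summed CPM of 8 dentate granule cell markers in the 12 libraries. The libraries with the fewest dentate markers, KO-labelled replicates 4 and 3 and WT-labelled replicates 3 and 5, hold the 4 highest *Htr2c* values.

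Some receptors also followed each other. *Htr5a* and *Htr5b* had r = 0.833 over the 12 libraries after label means were removed, 0.941 within the WT-labelled and 0.792 within the KO-labelled libraries. *Htr1a* and *Htr7* had r = -0.778, which was -0.862 within the KO-labelled and -0.223 within the WT-labelled libraries. *Htr1a* and *Htr1b* had r = 0.768, but 0.159 within the WT-labelled libraries, and *Htr2c* and *Htr3a* had r = 0.731. All pairs of the receptors were examined, these are the strongest, and they are descriptions. For each receptor, the genes most like it among 11289 genes of at least 5 CPM were sought in the same way. *Htr2a* was most like *Def8*, *Nr3c2*, the mineralocorticoid receptor gene, and *Gpr63* (r from 0.891 to 0.896). *Htr2c* was most like *Kit*, *Dpysl3* and *Sox5* (0.948 to 0.972), and *Htr5b* was most like *Mal2*, *Cpne8* and *Cadps2* (0.963 to 0.973). *Htr1a* was most like *Shisa7*, *Camk2a*, the kinase of excitatory synapses, and *Bcr* (0.913 to 0.971). Within the WT-labelled libraries these r were 0.624, 0.484 and 0.798, against 0.998, 0.989 and 0.943 within the KO-labelled libraries. *Htr7* was most like *Klhl4*, *Aplp2* and *Kndc1* (0.923 to 0.946). The top values for the remaining receptors were 0.944 for *Htr1b* with *Opa3*, 0.923 for *Htr1f* with *Naif1*, 0.887 for *Htr3a* with *Crtac1*, 0.929 for *Htr4* with *Mtch2* and 0.934 for *Htr5a* with *Chd5*. The highest of so many values over 12 libraries is large in any case, and these names are descriptions.

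The rest of the serotonin system was examined through fixed lists. Among 7 genes of synthesis, transport and breakdown, 6 were tested and none passed 1% FDR. Of these 6, 5 had positive log2 fold changes. The median was 0.12, or 0.09 without KO-labelled replicates 2 and 3. The raphe markers *Fev* and *Slc6a4*, the serotonin transporter gene, were at 0 reads and at most 0.137 CPM, respectively, and *Tph2*, the neuronal tryptophan hydroxylase gene, had 1.06 to 1.90 CPM. *Gata3*, of the same marker list and too low to be tested, had 0 to 1 reads in the WT-labelled libraries. In the KO-labelled libraries it had 1 to 36 reads, the most in replicate 3 with 0.694 CPM. *Maoa* and *Maob*, which code for the enzymes that break down serotonin, had log2 fold changes of 0.08 (edgeR adjusted p = 0.433) and 0.16 (edgeR adjusted p = 0.197).

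Downstream of the receptors, none of 10 Gi/o protein, regulator and GIRK channel genes, 12 Gq pathway genes, 12 Gs pathway genes or 9 genes of receptor-binding and RNA-editing proteins passed 1% FDR in edgeR in either direction. The median log2 fold changes of these lists were 0.03, -0.06, 0.03 and 0.03, beside 0.00 over all genes. In the Gq list, 9 of 12 genes had negative values, as had 11 of the 14 interneuron markers. Without KO-labelled replicates 2 and 3, 8 of the 14 interneuron markers and 8 of the 12 Gq genes had negative values. At 5% FDR 1 of the 12 was lower, against 4.43% of all genes. This gene, *Plcb1*, codes for the phospholipase C isoform abundant in hippocampus. It had 279 ± 19.9 CPM in the WT-labelled and 245 ± 10.2 CPM (SD, n = 6 each) in the KO-labelled libraries. Its log2 fold change was -0.19 ± 0.05 (SE; edgeR adjusted p = 0.0353), which passed 5% FDR as *Htr2a* did, and its adjusted p with DESeq2 was 0.00957. Without KO-labelled replicates 2 and 3 the log2 fold change of *Plcb1* was -0.18 and its edgeR adjusted p 0.118, so that it missed 5% FDR, as did *Htr2a*. With an offset for transcript length the edgeR adjusted p of *Plcb1* was 0.161, whereas that of *Htr2a* was 0.0210. With the replicate block added to this offset, the edgeR adjusted p of *Htr2a* was 0.0522, which missed 5% FDR.

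The annotated 3′ untranslated regions of the members ran from 49 bases in *Htr1b* and 462 in *Htr2a* to 4000 in *Htr5a*, as the longest per gene in the annotation used. *Htr5a* and *Htr4*, with 3278 bases, were the longest, and their log2 fold changes were 0.05 and -0.15. *Htr2a* and *Htr1b*, with the lowest log2 fold changes of -0.45 and -0.37, were the shortest, followed by *Htr3a* with 478 bases and a log2 fold change of 0.00. Between these, *Htr5b*, *Htr1f*, *Htr7*, *Htr1a* and *Htr2c* had 546, 1098, 2451, 2614 and 2682 bases. Their log2 fold changes were -0.20, -0.32, 0.33, -0.17 and 0.13, in the same order. A relation of length to fold change was not tested. Counts per gene leave out reads beyond annotated ends, which were not analysed here.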

How the data were processed

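Counts came from 12 hippocampal libraries, grouped by their labels. The authors prepared stranded poly(A) libraries, used TopHat 1.4.1 for alignment (build NCBIM37, or mm9) and HTSeq 0.5.4p3 for counting, and deposited unnormalized counts for each library. Genes were named from GENCODE M1 of the same build, which matched 37205 of 37991 IDs.

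Counts were filtered, TMM-scaled and tested with edgeR 4.0.16 (R 4.3.3) without covariates, at 1% FDR over all genes after the study's threshold. CPM are TMM-scaled, log2 CPM use a prior count of 2, and standard errors (SE) were derived from the log2 fold change and the F statistic. DESeq2 1.42.0, RLE factors, other filters, a replicate block, length offsets (splines with 5 degrees of freedom) and leaving out libraries were alternatives. Permutation tests used scipy 1.17.1. The procedures were tested on simulated data. Replicate pairs differed by more than counting error (chi-square per gene 9.03 to 40.8 over 30 pairs). One read was 0.0180 to 0.0224 CPM before scaling.

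Members, gene lists and the naming rule (all members, genes of fixed lists past the threshold or defining them, and the 3 genes most like each member) were chosen with earlier results of these data known. P-values cover the spread between these animals only.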

Additional observations from a re-analysis of the deposited data

Results flagged for a closer look

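Among 22 groups of 6 libraries, formed by the 10 receptor genes and *Gadd45a* in both labels, 1 held a library apart from the rest by Dixon's criterion at 95%, where about 1.1 are expected by chance. *Htr1a* in WT-labelled replicate 5 had 50.99 CPM, with the other 5 WT-labelled libraries between 41.9 and 45.1 CPM (gap to range 0.654).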

How the results depend on the processing

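Of 385 values recomputed under another setting, 353 kept their direction and their side of the threshold or stayed within 1.5 times the count. The number of genes lower in the KO-labelled libraries was 430, with 726 at 5% FDR, 660 with DESeq2, 274 with a length offset, 199 without KO-labelled replicates 2 and 3, and 239 to 467 when each library was left out. The number of higher genes was 4, with 20 at 5% FDR, 18 with DESeq2, and 9 with the length offset with or without the replicate block. Of the 10 receptor genes, 0 were lower in edgeR at 1% FDR, against 1, *Htr2a*, at 5% FDR and 1 with DESeq2. For *Htr2a* the log2 fold change was -0.45 at 5% FDR and -0.45 with DESeq2. *Htr3a* turned to -0.011 with the length offset and to -0.0082 with the length offset and replicate block, and ran from -0.037 to 0.061 when each library was left out. *Htr2c* ran from -0.0010 to 0.32 and *Htr5a* from -0.0038 to 0.095. The log2 ratio of *Htr1b* to *Htr1f* ran from -0.19 to 0.028, that of *Htr2a* to *Htr2c* from -0.83 to -0.49 and that of *Htr5a* to *Htr5b* from 0.19 to 0.37. The causes were not tested.

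Libraries of the same replicate number share only that number in the labels. Their deviations from the label means correlated with a mean of 0.140, from -0.0761 to 0.262, against -0.0279 for different numbers, and 1 of 6 WT-labelled libraries correlated best with its own number. With the replicate block, 509 genes were lower and 5 higher, no receptor passed 1% FDR, and *Htr2a* had a log2 fold change of -0.45 (edgeR adjusted p = 0.0455). In the fixed lists the block called 1 gene, the habenula marker *Nwd2*. At 72 to 232 reads in the WT-labelled libraries, *Htr1f* and *Htr1b* are the members that depth limits most.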

Other observations

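Other lists give further values of the dissection. The 6 oligodendrocyte markers had positive log2 fold changes, none at 1% FDR, with 2316 to 3678 summed CPM in the WT-labelled and 3004 to 7308 CPM in the KO-labelled libraries. The highest was KO-labelled replicate 3, the library also richest in thalamus markers, and the median log2 fold change of the list was 0.45, or 0.17 without KO-labelled replicates 2 and 3. Of 8 neocortex markers, *Rorb*, a transcription factor gene of cortical layer neurons and thalamus, had 21.6 ± 1.76 CPM in the WT-labelled and 27.2 ± 2.73 CPM (SD, n = 6 each) in the KO-labelled libraries, a log2 fold change of 0.33 (edgeR adjusted p = 0.0110) that passed 5% FDR and missed 1%. Its adjusted p was 0.000323 with DESeq2 and 0.00308 with a length offset. Without KO-labelled replicates 2 and 3 its log2 fold change was 0.27 (edgeR adjusted p = 0.0685), which missed 5% FDR. The 8 habenula markers summed to 40.8 to 55.2 CPM and 35.3 to 63.1 CPM, and *Gpr151* reached 5.87 CPM in KO-labelled replicate 2 against at most 1.07 CPM in the other KO-labelled libraries and at most 1.16 CPM in the WT-labelled libraries. The 6 astrocyte, 6 microglia and 6 endothelial markers had median log2 fold changes of 0.10, 0.06 and 0.11, with no gene at 1% FDR. A list of 5 genes of ventral hippocampus, added after the values of *Htr2c* had been seen, had r = -0.143 with *Htr2c* and -0.578 with *Htr2a* over the 12 libraries after label means were removed.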
